A study of Mus musculus with 24 samples.

Results

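Ecm1 and 8 genes known as members or targets of the TGF-beta and YAP pathways (Ctgf, Cyr61, Thbs1, Fn1, Ankrd1, Lox, Tgfb1 and Tgfb2) were followed through 16 RNA-Seq libraries, as 9 of 26225 genes counted. The 9 genes were selected by their exon RPKM (tags divided by the exon length and by the uniquely aligned tags of the library) in CCE and FH, so the levels in these 2 tissues are described here without a test. CCE were mouse CCE embryonic stem cells differentiated with 0.266 µM retinoic acid for 5 days, a culture, and FH was the head of the 14.5 dpc mouse fetus, a mixture of tissues that is mostly brain. Ribosomal RNA was removed with the RiboMinus kit (1 round for CCE and for the FH preparations numbered FH1, 2 rounds for FH2) or with the Ribo-Zero kit. The RiboMinus RNA was fragmented by RNA hydrolysis or, after cDNA synthesis, by shearing, and the same cDNAs were sequenced at Vienna-IMP and at Nijmegen. This gave 8 CCE and 6 FH RiboMinus libraries from 4 and 3 cDNA preparations, and 1 hydrolysed Ribo-Zero library per tissue. The other 8 of the 24 samples, 6 from extra lanes and 2 combined, were not analysed here. The preparations are technical replicates. Errors and p-values measure the spread between preparations as labelled, or between libraries where stated, and not between animals or cultures.

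TGF-beta ligands are secreted in a latent form, and once released they bind serine/threonine kinase receptors that activate Smad transcription factors. YAP is a co-activator that the Hippo kinases keep out of the nucleus, and it works on DNA mainly through TEAD factors. Both pathways act on genes of the extracellular matrix, among which Ctgf and Cyr61 are standard readouts of YAP. Retinoic acid drives embryonic stem cells out of pluripotency, and the parietal and primitive endoderm of the early embryo secrete large amounts of basement membrane.

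Promoters from RefSeq (GRCm38.p6) were searched for 5 of the members, Ecm1, Cyr61, Ankrd1, Tgfb1 and Tgfb2. Lox was left out before the search, and no promoter was matched for Ctgf, Thbs1 and Fn1. Both strands were searched over the 250 bases before the start. The motifs were the TEAD core GGAATG, the AP-1 site TGAGTCA and the Smad-type box CAGACA. Windows of 30 bases around the TEAD and AP-1 matches are shown because TEAD is the partner of YAP and AP-1 often works with it. Capitals mark the match, and each window is read 5′ to 3′ on the strand of its gene.
Cyr61, chr3:145650071-145650100, minus strand: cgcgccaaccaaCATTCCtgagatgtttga
Ankrd1, chr19:36120037-36120066, minus strand: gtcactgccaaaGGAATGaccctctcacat
Ankrd1, chr19:36119950-36119979, minus strand: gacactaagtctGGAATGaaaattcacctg
Ecm1, chr3:95739615-95739644, minus strand: gcagcagggacTGAGTCAtggcaggaaaca
The TEAD core began 103 bases before the start of Cyr61, where it is on the opposite strand, and 210 and 123 bases before that of Ankrd1. It was in 12.6% of the 32851 promoters of the table. The AP-1 letters began 64 bases before the start of Ecm1 and were in 4.46% of all promoters. CAGACA had 1 match each in Ecm1, Ankrd1 and Tgfb2 and was in 17.1% of all promoters. No match of the 3 motifs was in the Tgfb1 window. These matches describe letters and not bound sites.

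The RiboMinus libraries held 1058045 to 2473448 uniquely aligned tags in CCE and 920424 to 2188956 in FH, and the Ribo-Zero libraries 28708715 (CCE) and 48426051 (FH). Tags in protein-coding exons made up 65.0 to 72.4% in CCE and 44.4 to 61.3% in FH RiboMinus libraries, so RPKM values in FH are lower for protein-coding genes as a whole. Scaling to protein-coding exon tags moved the median log2 difference of all genes (FH minus CCE) from -0.33 to 0.03.

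Ecm1, a secreted glycoprotein of the extracellular matrix (mm9 chr3:95538070-95543492, minus strand), had the highest level of the 9 genes in the CCE RiboMinus libraries and one of the lowest in the FH RiboMinus libraries. Its RPKM in the 8 CCE RiboMinus libraries was 355.5 at the lowest, 423.2 at the median and 544.8 at the highest. In the 6 FH libraries it ran from 0.431 over 1.74 to 3.38, on 47 tags in all. Over the cDNA preparations the level was 449.5 ± 63.7 (SD, n = 4) in CCE and 1.80 ± 0.683 (SD, n = 3) in FH, and the pooled tags gave a ratio of 237.6 (95% exact interval 178.6 to 323.5, covering counting error only).

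**Figure D1:**
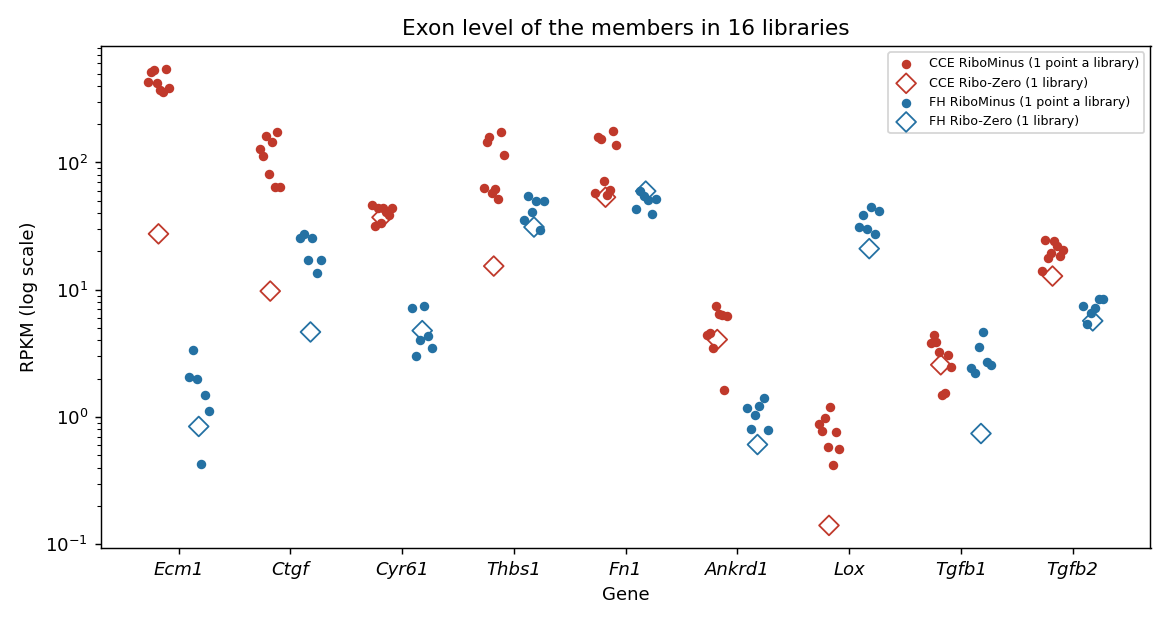
RPKM on a log axis for each of the 9 genes, with 1 point for each RiboMinus library and an open diamond for each Ribo-Zero library, CCE in red and FH in blue. Ecm1 lies between 355.5 and 544.8 in the CCE RiboMinus libraries and at 27.5 in the CCE Ribo-Zero library, and Lox is the gene whose FH libraries all lie above its CCE libraries.

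Ctgf and Cyr61 code for secreted matricellular proteins of the CCN family. Ctgf (chr10:24315248-24318489, plus strand) was at 63.8, 120.3 and 172.1 RPKM (lowest, median, highest) in CCE and at 13.6, 21.4 and 27.3 in FH. Cyr61 (chr3:145309935-145312949, minus strand) was at 31.9, 42.1 and 46.3 in CCE and at 3.03, 4.19 and 7.50 in FH. Neither gene's CCE libraries overlapped its FH libraries. The exons of Ctgf share 570 bases with the antisense lincRNA Gm15270, and the libraries do not keep the strand of the RNA. Without these bases the pooled RPKM of Ctgf was 84.1 in CCE and 13.96 in FH, against 112.5 and 20.4 with them.

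Ankrd1, a nuclear ankyrin repeat protein first known from muscle and a further readout of YAP, was a low gene: 1.62, 5.40 and 7.41 RPKM in CCE and 0.797, 1.10 and 1.42 in FH, on 116 and 18 tags. Its CCE libraries all lay above its FH libraries. Lox, the lysyl oxidase that crosslinks collagen and elastin, ran the other way. It was at 0.421, 0.769 and 1.21 RPKM in CCE, on 46 tags, and at 27.3, 35.0 and 44.9 in FH, a ratio of preparation means of 46.7.

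Thbs1 and Fn1, thrombospondin 1 and fibronectin, are large matrix glycoproteins, and thrombospondin 1 can release latent TGF-beta. Thbs1 (chr2:117937612-117952869, plus strand) was at 51.6, 89.0 and 174.4 RPKM in CCE and at 29.6, 45.4 and 54.6 in FH. Fn1 (chr1:71632094-71699774, minus strand) was at 55.8, 103.9 and 175.3 in CCE and at 39.6, 51.3 and 59.3 in FH. The lowest CCE libraries lay within the FH range for both, and this rests on 1 FH library. Both FH maxima came from FH1 hydrolysed at Vienna-IMP. By its order that is the lane the paper holds to be a likely technical outlier in tag composition. The next highest FH values, 50.2 for Thbs1 and 54.7 for Fn1, lay below the lowest CCE libraries.

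Of the ligands, Tgfb2 (chr1:188447065-188529871, minus strand) was at 14.03, 19.97 and 24.5 RPKM in CCE and at 5.37, 7.32 and 8.53 in FH, with no overlap. Tgfb1 was near 3 RPKM in both tissues, 3.15 ± 0.308 (SD, n = 4) in CCE and 3.01 ± 0.552 (SD, n = 3) in FH, and its libraries overlapped. Over the 9 genes, 5 had all CCE libraries above all FH libraries, beside 20.5% of the 10858 genes that passed the filter (mean RPKM over 3 in at least 1 tissue), and 1 had all FH libraries above, beside 14.3%. All 9 passed that filter, and since these levels chose the genes nothing is read from the counts. Lower RNA per cell and fewer cells that express a gene cannot be told apart in these bulk samples.

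In order of the CCE preparation means, Ecm1 (449.5) stood above Ctgf (116.6 ± 42.6), Fn1 (113.1 ± 44.4) and Thbs1 (107.1 ± 43.8). Those 3 genes lay within 1 SD of each other, with SDs over the preparations as labelled. Cyr61 (40.3 ± 4.22), Tgfb2 (19.8 ± 2.73), Ankrd1 (4.91 ± 1.75), Tgfb1 and Lox (0.768 ± 0.199) followed. In FH the order began with Fn1 (50.3 ± 3.31), Thbs1 (43.9 ± 1.58) and Lox (35.9 ± 1.91). RPKM is per length, but this order holds for the RiboMinus libraries: in the CCE Ribo-Zero library Fn1 (53.4) and Cyr61 (37.1) were above Ecm1 (27.5).

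The Ribo-Zero libraries, made from biological replicates of the RNA and with 1 library per tissue, gave values with no replicate check. Ecm1 was at 27.5 RPKM in CCE (1990 tags), 16.2-fold below the pooled CCE RiboMinus libraries (95% exact interval 15.5 to 17.0). Ctgf was 11.5-fold lower (10.6 to 12.5) and Thbs1 6.86-fold lower (6.57 to 7.17). Cyr61, at 37.1 RPKM, was within counting error of the RiboMinus pool, with a ratio of 1.07 (0.997 to 1.16), which was 1.36 with each position counted once. Counted that way, the ratios were 12.2 for Ecm1, 8.71 for Ctgf and 5.81 for Thbs1. The pool holds sheared and hydrolysed libraries, while the Ribo-Zero libraries are hydrolysed only. Ctgf was at 71.1 and 94.3 RPKM in the hydrolysed CCE preparations, against 9.76 with Ribo-Zero. Of the 8 genes over 3 RPKM in the CCE RiboMinus pool, 3 were more than 4-fold lower with Ribo-Zero, beside 6.42% of all such genes. In FH it was 1 of 6, Ctgf with 4.37-fold (3.86 to 4.93), beside 8.85%. Kit, RNA, sequencing location, instrument and the mix of fragmentation change together between these libraries and cannot be told apart. So do the read length, seen as an end minus start coordinate of 51 per tag against 34 or 35, and the share of mitochondrial tags in the total behind the RPKM, 8.23% in CCE and 4.54% in FH with Ribo-Zero and 0% in the RiboMinus libraries.

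Between the Ribo-Zero libraries, 6 of the 9 genes were higher in CCE. The share of all genes was not counted, and these levels also chose the genes, so nothing is read from such counts. Tags in protein-coding exons made up 61.66% of the CCE and 43.04% of the FH library. Ecm1 was 32.6-fold higher in CCE (26.7 to 40.1), Cyr61 7.77-fold (7.02 to 8.60) and Tgfb2 2.25-fold (2.09 to 2.42). Ankrd1 was 6.68-fold higher (4.91 to 9.24). Ctgf was 2.10-fold higher (1.87 to 2.35), against a ratio of preparation means of 5.45 in RiboMinus. Tgfb1, level between the tissues in RiboMinus, was 3.47-fold higher in CCE (2.69 to 4.50). Thbs1 was at 15.4 RPKM in CCE and 31.1 in FH, and Fn1 at 53.4 and 59.6, so both were higher in FH, the opposite of the RiboMinus means. With each position counted once, an alternative added after seeing the data, the order turned for Fn1 and the tissues were nearly level for Thbs1. The ratio of CCE to FH was then 1.54 for Fn1, on 5200 and 6923 positions, and 0.938 for Thbs1, on 1690 and 3702, and 7 of the 9 genes were higher in CCE. The number of positions counted is bounded by the length of the gene. Lox was at 0.141 in CCE, on 19 tags, and at 21.04 in FH, and its ratio of FH to CCE with each position counted once was 62.8.

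The loss of Ecm1 tags in the CCE Ribo-Zero library ran along the whole transcript. All 11 exons were lower than in either RiboMinus fragmentation, and exon 8 went from 766.5 RPKM (hydrolysed) and 1072 (sheared) to 44.9. The shortest exon, exon 6 with 45 bases, was the lowest in all 3, at 66.4, 187.4 and 1.55, on 22, 48 and 2 tags. The study did not align tags across splice junctions, which limits the tags that a short exon can hold.

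**Figure D2:**
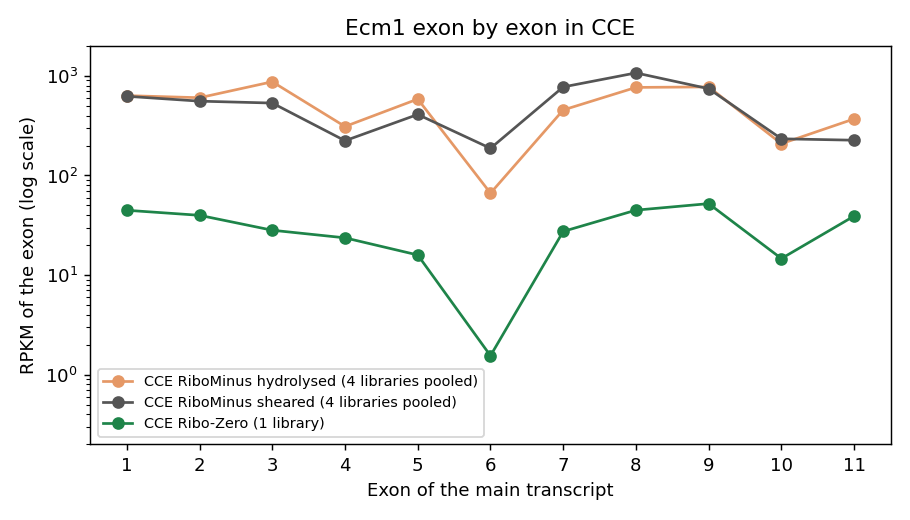
RPKM on a log axis for exons 1 to 11 of the main Ecm1 transcript in CCE, with pooled hydrolysed RiboMinus, pooled sheared RiboMinus and Ribo-Zero libraries as lines. The Ribo-Zero line lies below both RiboMinus lines at every exon, at 44.9 in exon 8 where they are at 766.5 and 1072.

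Fn1 and Thbs1 divided the libraries into 2 separate sets within the 8 CCE libraries, and the sets held the same libraries for both genes. In CCE2 sheared from Vienna-IMP and Nijmegen, CCE2 hydrolysed from Nijmegen and CCE1 hydrolysed from Vienna-IMP, Fn1 was at 153.8, 175.3, 136.0 and 159.9 RPKM. In CCE1 sheared from Vienna-IMP and Nijmegen, CCE1 hydrolysed from Nijmegen and CCE2 hydrolysed from Vienna-IMP it was at 57.8, 55.8, 60.6 and 71.8. Thbs1 was at 158.2, 174.4, 114.5 and 143.6 in the first set and at 63.5, 62.3, 51.6 and 57.7 in the second. Over the 8 libraries the correlation with Fn1 on the log2(RPKM + 1) scale was 0.97 for Thbs1, 0.78 for Ecm1, 0.27 for Ctgf and -0.30 for Cyr61, as a description of libraries that share cDNA. Of 1583 genes, 0.569%, 4.61%, 17.5% and 45.8% had an r at least as high as these, in the same order.

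**Figure D3:**
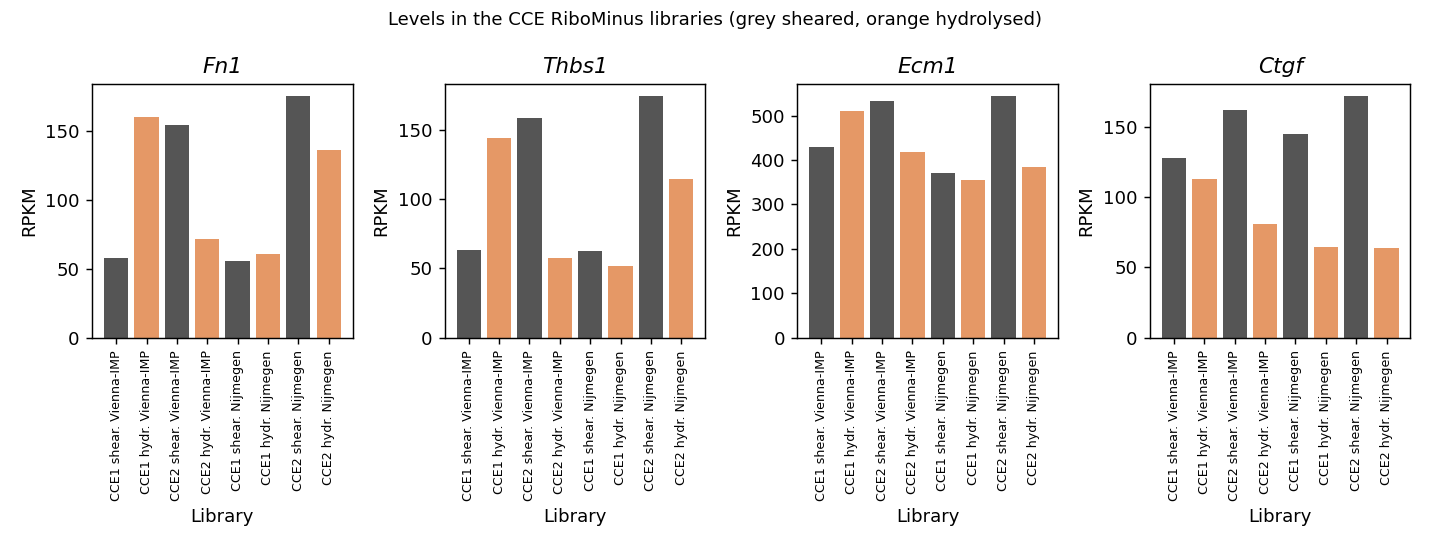
RPKM of Fn1, Thbs1, Ecm1 and Ctgf in each of the 8 CCE RiboMinus libraries, as bars from 0, sheared in grey and hydrolysed in orange. Fn1 and Thbs1 are high in the same 4 libraries, and Ctgf is lower in each hydrolysed library than in any sheared one.

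The same pattern was present across genes, with the 9 members left out. The log2 ratio of CCE1 to CCE2 correlated across genes between the locations with r = 0.64 for sheared cDNA and r = -0.64 for hydrolysed cDNA. Within Vienna-IMP the ratio of sheared and of hydrolysed cDNA correlated with r = -0.68, and within Nijmegen with r = 0.58. The numbers of the hydrolysed CCE libraries at Vienna-IMP therefore go against the other 3 sets, and the labels were kept as given. If these numbers are exchanged, each hydrolysed CCE preparation summed here mixes both cDNAs. For Fn1, 159.9 and 60.6 RPKM gave 122.1 in CCE1 hydrolysed, and 71.8 and 136.0 gave 108.3 in CCE2 hydrolysed. SDs over CCE preparations, limma errors and ratios per hydrolysed cDNA would then not measure the spread between cDNAs. Genes are not independent replicates. Of 1583 genes with a CCE mean over 30 RPKM, 55.6% had a highest CCE library more than 2-fold above the lowest, and 3 of the 5 members at that level did.

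Fragmentation was compared over the 7 cDNA preparations with limma on log2(RPKM + 1), with the tissue as a covariate. FH2 hydrolysed, the preparation with 2 depletion rounds, has no sheared partner, so in FH the rounds are mixed with fragmentation. Ctgf was lower after hydrolysis, at 71.1 and 94.3 RPKM in the hydrolysed CCE preparations against 133.8 and 167.3 in the sheared ones. The log2 difference was -0.68 (SE 0.165, adjusted p = 0.0101 over all genes). Cyr61 was lower by a log2 difference of -0.46 (SE 0.150, adjusted p = 0.0342). With the RNA as a block, which leaves out FH2, Ctgf stayed at -0.66 (adjusted p = 0.038) and Cyr61 lost the call at -0.42 (adjusted p = 0.109). Cyr61 also lost it without any 1 of CCE1 hydrolysed (adjusted p = 0.0715), FH1 sheared (0.306), FH1 hydrolysed (0.0842) or FH2 hydrolysed (0.0841), with no filter (0.0596) and with protein-coding scaling (0.0536). In the CCE preparations alone neither was called, with Ctgf at -0.86 (adjusted p = 0.0867) and Cyr61 at -0.21 (adjusted p = 0.335). Of the 9 genes 2 were called lower and 0 higher, beside 20.0% and 24.9% of all genes tested.

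The other 7 were not called, with intervals that for several are wide. The log2 difference was 0.08 for Ecm1 (95% interval -0.32 to 0.49), 0.20 for Fn1 (-0.46 to 0.87, and a called 0.57 with adjusted p = 0.0396 without CCE2 sheared) and 0.00 for Thbs1 (-0.63 to 0.62). It was 0.15 for Tgfb2 (-0.13 to 0.43) and -0.20 for Lox (-0.48 to 0.07). For the difference of the fragmentation effect between FH and CCE, limma called 0 of the 9, beside 0.046% of all genes, with 1 at an unadjusted p under 0.05. That gene was Cyr61, with a log2 difference of -0.62 (SE 0.225, unadjusted p = 0.0269, adjusted p = 0.535).

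Between the sequencing locations limma called 0 of the 9 over the 14 RiboMinus libraries, beside 0.976% of all genes, with 1 at an unadjusted p under 0.05. This was Ecm1, whose log2 difference was 0.46 higher at Vienna-IMP (SE 0.171, unadjusted p = 0.0165, adjusted p = 0.334). The fit held tissue and fragmentation as covariates and did not use the pairing of libraries by cDNA. Its errors measure the spread between libraries that share cDNA.

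The hydrolysed and the sheared CCE libraries also differed in where along the transcript the tags lay. The density of tags per base in the 3′ UTR, relative to that in the coding exons, was compared in CCE for the 5 members with at least 10 coding tags in every CCE library and a 3′ UTR of at least 100 bases. For Ctgf the ratio was 0.521 ± 0.136 (SD, n = 4 libraries of 2 cDNAs) after hydrolysis and 0.111 ± 0.0241 (n = 4 libraries of 2 cDNAs) after shearing, so the SDs hold repeat sequencing of 1 cDNA as well as the spread between cDNAs. For Fn1 it was 0.938 ± 0.301 and 0.407 ± 0.170, for Thbs1 0.529 ± 0.122 and 0.174 ± 0.0301. For Cyr61 it was 0.665 ± 0.1004 and 0.240 ± 0.0687, and for Tgfb2 0.527 ± 0.106 and 0.271 ± 0.0753.

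Every hydrolysed library lay above every sheared library for each of the 5 genes, as it did for 27.6% of the 6080 protein-coding genes that met the same limits. The opposite order held for 0 of the 5 and for 1.69% of those genes. The difference on the log2 scale ran from 0.96 for Tgfb2 to 2.22 for Ctgf, beside a median of 0.63 over those genes. The exact two-sided permutation test gave p = 0.0286 for each, the smallest that 4 against 4 libraries allow, and the same after adjustment over the 5. This test compares libraries and not preparations, since each fragmentation has 2 cDNAs, each sequenced at both locations. With the locations summed per cDNA, an alternative added after seeing the data, the ratio of Ctgf was 0.408 and 0.619 after hydrolysis and 0.124 and 0.0923 after shearing, and the hydrolysed cDNAs stayed above the sheared for all 5 genes. Over 2 against 2 cDNAs the exact test gave p = 0.333 for each, the smallest it allows, so the difference cannot pass a test over preparations. In the CCE Ribo-Zero library, also hydrolysed, the ratios were 0.820 for Ctgf, 0.816 for Cyr61, 0.709 for Thbs1, 1.00 for Fn1 and 0.720 for Tgfb2.

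**Figure D4:**
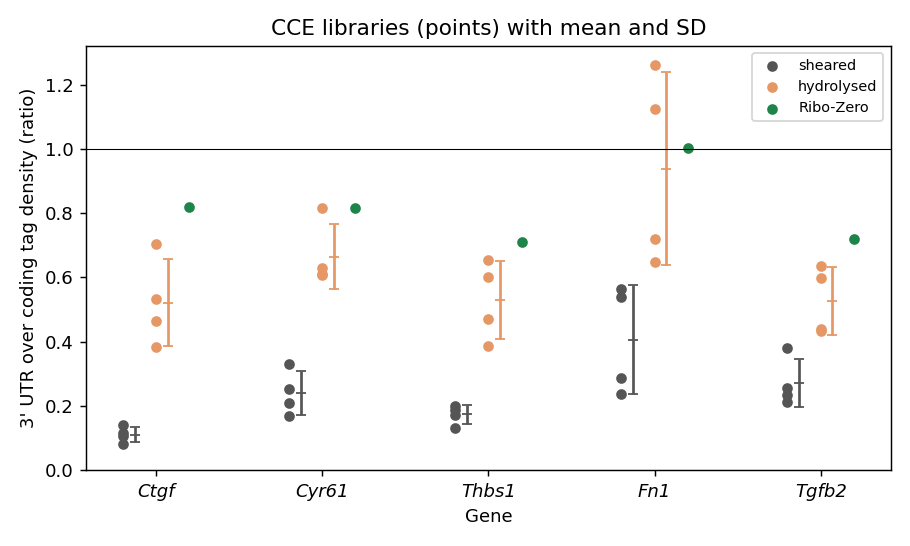
Ratio of tag density in the 3′ UTR to that in coding exons for Ctgf, Cyr61, Thbs1, Fn1 and Tgfb2 in CCE, with 1 point per library for sheared, hydrolysed and Ribo-Zero, and the mean with its SD beside the 4 sheared and the 4 hydrolysed points. All hydrolysed points lie above all sheared points of the same gene, with Ctgf means of 0.521 and 0.111.

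Within the coding exons of Ctgf, the tag density over the 3′-most 20% of the bases, relative to that over the 5′-most 20%, was 0.170 after shearing in CCE and 0.619 after hydrolysis. In FH it was 0.221 and 0.271, on 4 and 12 tags at the 3′ end. In the CCE Ribo-Zero library this ratio was 1.19. In the sheared, hydrolysed and Ribo-Zero libraries of CCE it was 0.699, 0.702 and 0.596 for Fn1, with 7431 coding bases, and 0.517, 0.511 and 1.15 for Ecm1.

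Fibronectin is made with or without the extra domains EDB and EDA, each coded by 1 exon and typical of embryonic and cellular fibronectin. The EDB exon is number 25 of 46 (mm9 chr1:71660337-71660609) and the EDA exon number 33 (chr1:71650234-71650503), both on the minus strand. Their first 30 bases are shown to identify the exons counted.
EDB: aggtgccccagctcactgacctaagctttg
EDA: acattgatcgccctaaaggactggcattca
The EDB density relative to constitutive coding exons was 0.519 ± 0.0677 (SD, n = 4) in CCE, on 222 tags, and 0.429 ± 0.212 (n = 3) in FH, on 66. The EDA density was 0.595 ± 0.141 in CCE, on 248 tags, and 0.456 ± 0.0486 in FH, on 64. The ranges of the tissues overlapped for EDB (0.426 to 0.570 and 0.273 to 0.671) and for EDA (0.471 to 0.747 and 0.423 to 0.512). In the Ribo-Zero libraries, with more tags, EDB was at 0.777 (95% exact interval 0.692 to 0.868) in CCE and 0.818 (0.756 to 0.884) in FH, and EDA at 0.852 (0.763 to 0.948) and 0.639 (0.584 to 0.699). These are single libraries, and the intervals treat repeated tags of 1 position as independent. With each position counted once, an alternative added after seeing the data, EDA was at 0.984 in CCE and 0.906 in FH, on 163 and 203 positions. Tags across splice junctions were not aligned, so exons of different length lose different shares of their tags. The size of this in the ratios was not tested. The values also depend on the reference. Relative to the flanking exons alone, the RiboMinus mean of EDA was 0.894 in CCE and 1.37 in FH. With Ribo-Zero the order was the opposite, 0.977 in CCE against 0.683 in FH.

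Intron tags come from unspliced RNA or from other transcripts in the introns. For Ecm1 the intron density was 8.06 ± 1.55 RPKM (n = 4) in CCE and 0.546 ± 0.176 (n = 3) in FH, 1.83% and 32.2% of the exon density, the second on 17 tags. In the Ribo-Zero libraries the intron density of Ecm1 was 1.08 RPKM in CCE, on 90 tags, and 0.769 in FH, on 108 tags, where it was 91.1% of the exon density. For Lox it was 0.0341 in CCE, on 4 tags, and 0.952 in FH. For Fn1 the intron density was 1.04 ± 0.433 and 0.787 ± 0.230 RPKM, a difference smaller than the SD in CCE.

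The 5 genes with the pattern most like Ecm1, by Pearson's r of log2(RPKM + 1) over the 16 libraries, were Cdkn2b (0.993), Lif (0.992), Ahnak2 (0.991), Gm53 (0.991) and Hoxa9 (0.989). Cdkn2b, a cyclin-dependent kinase inhibitor induced by TGF-beta, was at 89.9 RPKM in CCE and 0.990 in FH, and Lif, the cytokine that sustains mouse embryonic stem cells, at 5.67 and 0.0760. By Spearman's rho the 5 were others, led by Als2cl (0.976) and Gprc5a (0.974). Among the members, Cyr61 (0.938) and Tgfb2 (0.937) had the highest r, and Lox the lowest (-0.934). By rho Ctgf (0.844) and Thbs1 (0.832) were the highest members, with Tgfb2 at 0.718 and Cyr61 at 0.685. These values mostly reflect the difference between the tissues.

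The other genes of the pathways were taken from 7 lists, and 112 of 131 were tested. In FH 28 were higher and 50 lower, and 34 were not called (limma, adjusted p under 0.05), beside 20.3% of all genes higher and 34.0% lower. The fit held no term for fragmentation. With fragmentation as a covariate 35 were higher and 54 lower, beside 2798 and 5218 of all 10858 genes. Scaled to protein-coding exon tags the split was 37 and 38, beside 27.4% and 20.0%. These shares of all genes also stand beside the counts of each list below, which come from the RiboMinus preparations. The median log2 difference was -0.25 for these genes and -0.33 for all genes tested.

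Of the other YAP targets 13 of 19 fell in FH and 3 rose, beside 34.0% and 20.3% of all genes, with a median log2 difference of -0.95. F3, tissue factor, fell from 41.8 ± 4.65 to 3.00 ± 0.889 RPKM (log2 difference -3.44, adjusted p = 2.92e-06). Myof, a membrane repair protein, fell from 25.6 to 2.68, and Igfbp3, a binding protein of insulin-like growth factors, from 153.8 to 35.2. Fjx1 and Nt5e rose, by 1.38 and 1.12 on the log2 scale. Under the protein-coding scaling 10 fell and 4 rose. Of the 13 falls, Axl (10.6 in CCE and 13.6 in FH) and Ccdc80 (7.60 and 11.1) went the other way in the single Ribo-Zero libraries. The others kept their direction there.

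Of the other TGF-beta targets 9 of 20 fell and 9 rose. In the single Ribo-Zero libraries Timp3, a fall, was at 6.48 RPKM in CCE and 8.56 in FH. Snai1, a rise, was at 2.28 and 1.91 there, and the other called genes of this list kept their direction. Cdkn2b fell by 5.51 on the log2 scale. Cdkn1a, another cell cycle inhibitor, fell by 3.96 and Id1, an inhibitor of bHLH factors, fell from 313.9 to 74.4 RPKM. Col1a2, a chain of type I collagen, rose from 1.39 ± 0.230 to 44.3 ± 11.5 RPKM, and Postn, periostin, from 0.851 to 21.4. Of the matricellular and lysyl oxidase families 9 of 16 rose and 4 fell. With Ribo-Zero Spp1, a rise, was at 16.2 RPKM in CCE and 7.61 in FH. Wisp1, a fall, was at 4.99 and 6.47, and the other called genes of these families kept their direction. Loxl2, a relative of Lox, fell from 99.9 to 16.3 RPKM while Lox itself was higher in FH. Sparc, an abundant matricellular protein of basement membrane, fell from 134.8 to 45.9, and Vtn (vitronectin) and Sparcl1 rose by 3.26 and 3.08 on the log2 scale.

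Of the TGF-beta receptors and Smads 6 of 15 fell and 0 rose, with 4 and 0 under the protein-coding scaling. Bambi, a pseudoreceptor, fell by 2.06 on the log2 scale (adjusted p = 0.000545), and Smad6, an inhibitory Smad, fell by 1.86 (adjusted p = 0.0137, and 0.055 without the FH1 hydrolysed or 0.0541 without the FH2 hydrolysed preparation). Ski had the highest mean of the list over both tissues, at 36.9 RPKM in CCE, where Smad6 was at 40.9, and 38.3 in FH. Of the ligands and their activators 3 of 10 rose and 2 fell, with 5 and 1 under the protein-coding scaling. Ltbp3, which holds latent TGF-beta in the matrix, rose by 2.75, and Itgb8, a subunit of an integrin that activates it, by 1.84. Itgav, the partner of that subunit, fell by 1.33, and Ltbp1 fell by 0.85 (adjusted p = 0.0109, and 0.0683 under the protein-coding scaling). Bmp1 had the highest mean of the list over both tissues, at 38.7 and 41.6 RPKM.

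Of the Hippo and YAP machinery 11 of 24 fell and 2 rose, with 6 and 5 under the protein-coding scaling. Amotl2 fell from 75.2 to 18.2 RPKM and Stk4 from 10.8 to 3.22, and the protocadherins Dchs1 and Fat4, which bind each other, rose by 2.18 and 1.63. Tead2 was at 86.3 RPKM in CCE and 54.4 in FH (log2 difference -0.65, adjusted p = 0.0227, and 0.21 under the protein-coding scaling, 0.0861 without the FH1 hydrolysed or 0.0827 without the FH2 hydrolysed preparation). Of the receptors and partners of the members 7 of 13 fell and 2 rose, with 5 and 4 under the protein-coding scaling. Itgb1, the integrin chain of fibronectin receptors, fell from 281.0 ± 76.8 to 61.5 ± 25.8 RPKM. Plscr1, which binds ECM1, fell by 2.27. Eln, the elastin that Lox crosslinks, rose from 0.283 to 68.1, and Cd47, a thrombospondin receptor, from 1.77 to 6.93.

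**Figure D5:**
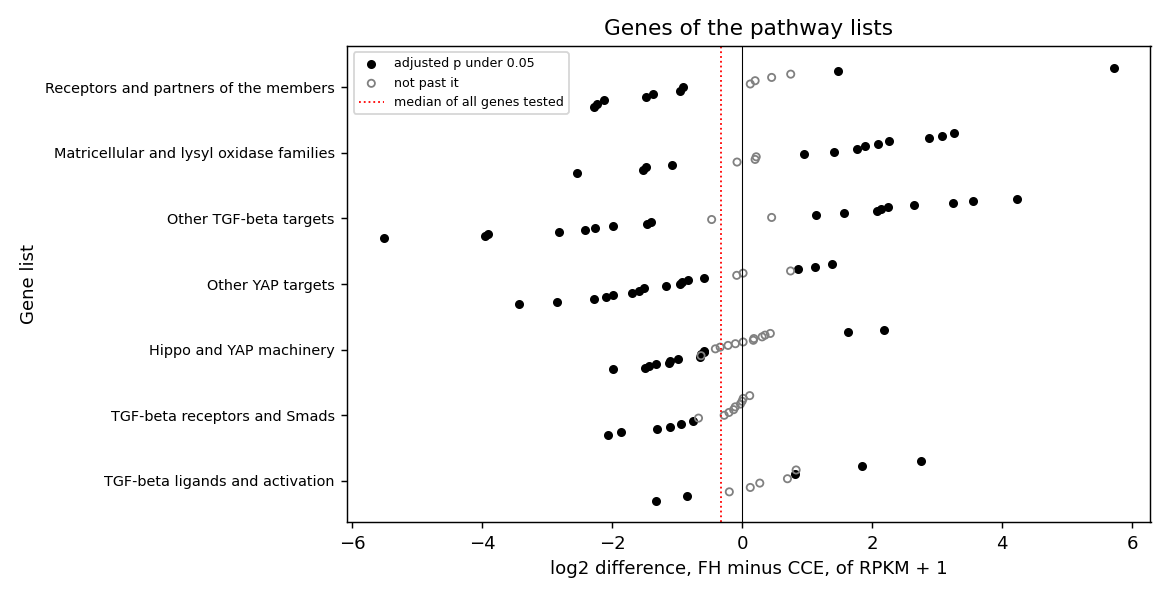
Log2 difference, FH minus CCE, of RPKM + 1 for each tested gene of the 7 lists, 1 point per gene, filled where the adjusted p is under 0.05, with the median of all genes tested as a dotted line at -0.33. The other YAP targets lie mostly to the left, with 13 of 19 lower in FH, beside 34.0% of all genes tested.

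Markers of other cell types differed between the tissues along with these genes. The summed RPKM of 17 extra-embryonic endoderm markers was 493.4 to 805.7 in CCE and 219.9 to 356.3 in FH RiboMinus libraries, and Gata4 had 0 tags in FH. Of the 16 tested, 13 were lower and 1 higher in FH, with 11 and 2 under the protein-coding scaling. The higher one without that scaling was Ttr, transthyretin, at 9.13 ± 1.44 RPKM in CCE and 143.2 ± 29.9 in FH (limma, adjusted p = 1.73e-06). With it Pth1r, at 18.7 and 32.9 RPKM before scaling, was higher too (limma, adjusted p = 0.00995). Col4a2, a chain of type IV collagen with the highest mean over both tissues, was at 137.1 and 38.1, and Plat, the highest in CCE, at 154.4 and 18.2. The 9 neural markers summed to 38.3 to 59.5 in CCE and 376.2 to 783.3 in FH, and the 10 mesenchyme markers to 96.2 to 166.4 and 433.6 to 558.0. Tubb3, a neuronal tubulin, was at 16.9 RPKM in CCE and 216.6 in FH, and Col1a1, a chain of type I collagen, at 12.8 and 124.1. Twist1, the highest mesenchyme marker in CCE, was at 70.9 and 65.5. The 7 endothelium markers summed to 5.71 to 9.78 and 74.9 to 158.7, with Cldn5 at 1.64 and 50.97 RPKM. The 8 platelet and blood markers summed to 2.41 to 4.99 and 136.6 to 402.9, with Hbb-b1 at 0 tags in CCE. The 5 markers of pluripotent cells summed to 25.6 to 43.5 in CCE and 0.359 to 1.37 in FH, where Pou5f1 was at 0 tags. The part of cell composition in the levels of the 9 genes was not tested.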

How the data were processed

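The authors deposited 1 list of uniquely aligned tags per library (Bowtie, mm9, per the labels), and the deposited score column was constant per tag and not used. Tags were counted by midpoint in merged GENCODE exons of the same build (22380 protein-coding and 3845 non-coding genes) and given as RPKM. Strand was not used. Locations were summed per cDNA preparation as labelled. Differences were tested with limma 3.58.1 (R 4.3.3) on log2(RPKM + 1) with an intensity trend and Benjamini-Hochberg adjustment over 10858 genes with a mean RPKM over 3 in a tissue, and the script was tested on simulated data. Ratios of pooled tags carry 95% exact intervals for counting error, and exact permutation tests used scipy 1.17.1. Hydrolysed and sheared cDNA of one number came from the same RNA per the study's methods, which defines the block; the numbers of the hydrolysed CCE libraries correlated with r = -0.64 between locations. The 9 genes, the lists and the tests were chosen with earlier results of these data known. Genes of a list were named by rule: up to 2 largest falls and rises among called genes whose preparations did not overlap, and the gene of highest mean. A symbol with more than 1 gene model was taken at its longer model.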

Additional observations from a re-analysis of the deposited data

How the results depend on the processing

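Depth limits Ankrd1 (116 pooled RiboMinus tags in CCE and 18 in FH), Tgfb1 (105 and 74), Lox in CCE (46) and Ecm1 in FH (47). The log2 level of FH over CCE moved by more than the spread between preparations for Ecm1, to -7.22 with each position counted once and -8.68 in Nijmegen libraries alone, for Lox, to 5.90 scaled to protein-coding exon tags and 5.23 with each position counted once, and for Tgfb2, to -1.11 scaled to protein-coding exon tags. Tgfb1, whose tissues overlapped, was at -0.49 in Vienna-IMP libraries alone and turned to 0.28 scaled to protein-coding exon tags, 0.63 in Nijmegen libraries alone. Leaving out 1 preparation gave -0.20 (without FH1 sheared) to 0.0662 (without FH1 hydrolysed). The cause was not tested.

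The number of members called between fragmentations was 2, and fell to 1 with no filter, with protein-coding scaling, and with the RNA as a replicate block, as labelled or with the hydrolysed numbers exchanged at Vienna-IMP (an alternative chosen after seeing the data), and Cyr61 was the gene lost in each. It was 0 with the CCE preparations alone, where 0 of all genes were called and 3708 had an unadjusted p under 0.05. Leaving out 1 preparation gave 1 to 3, with Fn1 added without CCE2 sheared, and Cyr61 lost the call without CCE1 hydrolysed, FH1 sheared, FH1 hydrolysed or FH2 hydrolysed. With the cDNA preparation as a block, no member's call between locations changed. Over all genes the calls went from 106 to 85, or to 194 with the hydrolysed numbers crossed at Nijmegen. For the 3′ UTR ratio, 0 of 5 passed with the paired sign-flip test, 0 with the locations summed per cDNA preparation (added after seeing the data) and 0 without each CCE preparation, designs too small to pass, and every direction was kept. Relative to flanking exons, EDB in CCE was 0.686, and EDA 0.894 in CCE and 1.37 in FH. In the Ribo-Zero libraries the ratio of CCE to FH of Fn1 turned to 1.54 and EDA was 0.984 (CCE) and 0.906 (FH) with each position counted once, an alternative chosen after seeing the data. None of the 5 genes most like Ecm1 by Pearson's r was among the 5 by Spearman's rho, a count of 0. Among pathway genes, Smad6 lost its call in limma without FH1 hydrolysed (adjusted p = 0.055) or FH2 hydrolysed (0.0541). Tead2 lost it without these too (0.0861 and 0.0827) and with each position counted once (0.072).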
